A study of Mus musculus with 6 samples.

Results

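Presynaptic vesicle release machinery is described here as 38 genes whose proteins store, dock, prime, fuse and retrieve synaptic vesicles. The members were found by symbol in the deposited table of 38293 genes, and all 38 were among the 14642 genes that passed the filter on low counts. They fall into 10 vesicle proteins, 6 synaptotagmins, 8 genes for SNAREs, complexins and SNARE disassembly, 10 genes for the active zone, priming and Rab3, and 4 genes for endocytosis.

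The cells were primary cortical neurons of wild-type mice, dissociated from Swiss-Webster embryos at embryonic day 16 and collected on day 13 in vitro. Of the 6 libraries, 3 control libraries had no treatment, and 3 NMDA libraries came from cultures given 50 µM NMDA, an agonist of a class of glutamate receptors, for 10 minutes and then 50 minutes in medium without the drug. Both groups share genotype, age and culture, and such dissociated cultures also hold non-neuronal cells. RNA-seq counts poly(A) RNA of the whole dish, so fewer cells of a type and less RNA per cell cannot be told apart. The growth protocol also speaks of etoposide, but neither group is labelled with it.

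Transmitter release starts when calcium enters the nerve terminal and binds synaptotagmins on vesicles already docked at the active zone. Synaptobrevin on the vesicle (Vamp genes) and syntaxin and SNAP-25 on the plasma membrane then zip into a SNARE complex that pulls the membranes together. Munc13 and RIM proteins ready the vesicle beforehand, complexins clamp and assist the SNAREs, NSF takes spent complexes apart, and dynamin, amphiphysin, endophilin and synaptojanin recover the membrane.

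Promoters of 4 members are shown because the results below turn on these genes: Syn1 and Rab3a, the members with the largest rises in the fit with replicate number as a block, and Unc13a and Unc13b, the members of the Munc13 family, which both fell in it. Each line is the 250 bases before the first RefSeq transcript start on GRCm38.p6, read 5′ to 3′ on the gene's own strand, with capitals marking the letters TGACG, the core of the cyclic AMP response element bound by CREB, on either strand. Syn1 lies at chrX:20920919-20921168 on the minus strand, Rab3a at chr8:70754453-70754702 on the plus strand, Unc13a at chr8:71671758-71672007 on the minus strand and Unc13b at chr4:43058703-43058952 on the plus strand.
Syn1: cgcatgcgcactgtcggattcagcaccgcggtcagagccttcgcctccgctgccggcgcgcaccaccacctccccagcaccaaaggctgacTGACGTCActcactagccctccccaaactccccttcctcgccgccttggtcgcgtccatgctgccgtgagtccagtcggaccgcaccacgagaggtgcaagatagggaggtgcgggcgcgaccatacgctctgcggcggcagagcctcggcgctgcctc
Rab3a: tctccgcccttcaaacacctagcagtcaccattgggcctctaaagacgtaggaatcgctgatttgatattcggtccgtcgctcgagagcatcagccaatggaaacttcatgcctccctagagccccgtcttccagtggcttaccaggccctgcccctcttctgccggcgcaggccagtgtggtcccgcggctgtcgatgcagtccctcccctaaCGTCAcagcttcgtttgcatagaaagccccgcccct
Unc13a: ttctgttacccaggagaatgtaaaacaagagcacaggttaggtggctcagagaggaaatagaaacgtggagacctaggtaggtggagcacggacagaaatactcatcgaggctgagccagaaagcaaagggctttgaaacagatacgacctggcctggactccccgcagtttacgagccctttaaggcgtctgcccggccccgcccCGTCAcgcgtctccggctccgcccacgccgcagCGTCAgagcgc
Unc13b: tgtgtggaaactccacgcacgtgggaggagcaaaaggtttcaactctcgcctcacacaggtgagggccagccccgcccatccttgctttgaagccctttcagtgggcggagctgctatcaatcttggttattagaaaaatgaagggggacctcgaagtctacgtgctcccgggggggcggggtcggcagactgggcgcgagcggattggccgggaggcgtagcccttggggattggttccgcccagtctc
In Syn1, 2 matches on opposite strands overlap as the full palindrome TGACGTCA, from 159 to 152 bases before the start. Rab3a had 1 match, from 36 to 32 bases before the start, and Unc13a had 2, from 44 to 40 and from 11 to 7. Unc13b had no match in this window. Syn1 and Rab3a, which rose in the blocked fit, and Unc13a, which fell, thus held the letters, as the full palindrome in Syn1 alone. The 4 genes were picked by their change, and whether the letters bear on it was not tested.

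A RefSeq promoter was at hand for 30 of the 38 members, and 7 of these held TGACG on either strand (Erc1, Rab3a, Sh3gl2, Stx1a, Syn1, Syt2 and Unc13a). Among the first promoters of 27025 genes, 17.9% held it. The full TGACGTCA, which contains the shorter motif, was in 2 members (Sh3gl2 and Syn1) and in 1.62% of all promoters. The AP-1 motif TGANTCA, recognised by Fos and Jun proteins, was in 2 members (Erc2 and Rph3a) and 6.87% of all promoters. The EGR motif GCGNGGGCG was in 7 members (Erc1, Nsf, Sh3gl2, Syn2, Syngr1, Synpr and Unc13a) and 4.65% of all promoters. These are letter matches, not measured binding sites.

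Totals of counted reads ranged from 15417234 to 19183999 per library. Stimulation was visible in the immediate early genes, with fitted log2 changes of 5.13 for Fos, 6.68 for Fosb, 3.59 for Npas4, 2.65 for Arc and 2.01 for Egr1, all past an adjusted p of 0.05 in edgeR's quasi-likelihood test. The neuronal marker Map2 was at 1803 to 2882 CPM (read counts per unit of TMM-adjusted library size), and the 9 microglial markers summed to 3.9 to 5.61 CPM. Summed over 10 markers, astrocyte RNA was at 2196 to 2864 CPM in control and 2368 to 3606 CPM in NMDA libraries. The groups overlapped, but each NMDA library was above the control library of the same number, and 7 of the 10 markers passed the test with replicate number as a block. The 10 pan-neuronal markers summed to 5836 to 6437 and 5815 to 6578 CPM, and 5 of them rose with the block (Rbfox3, Tubb3, Nefl, Nefm and Elavl3). Of the 10, 7 were higher with NMDA in each pair and 2, Map2 and Dcx, were lower in each pair. Map2, the most abundant, had a blocked log2 change of -0.26. Its adjusted p with the block was 0.071 in edgeR and 0.028 in the DESeq2 Wald test. The 9 excitatory markers differed in sum by log2 -0.10, -0.23 and -0.26 in the 3 pairs, while their median blocked log2 change was -0.02. Camk2a, the most abundant of them, fell with the block, from a mean of 679 CPM in control to 518 CPM in NMDA libraries. Neurod2 and Emx1 rose with the block in edgeR, but their adjusted p-values were 0.13 and 0.076 in DESeq2 with the block. The 10 inhibitory markers summed to 623 to 648 CPM in control and 677 to 715 CPM in NMDA libraries, without overlap. Their median blocked log2 change was 0.06. Gad1, the most abundant of them, went from a mean of 216 to 252 CPM, with an adjusted p of 0.058 in edgeR with the block. Of the 10, 1 (Sst) rose with the block in edgeR, but its adjusted p was 0.083 in DESeq2 with the block. The 8 endothelial and mural markers summed to 93 to 134 and 124 to 245 CPM, higher with NMDA in each pair; Tagln and Acta2, markers of mural cells, rose by log2 0.67 and 0.56 with the block, while Cldn5, an endothelial marker, was at 0 in every library. The 8 progenitor and cycling markers summed to 788 to 1178 and 871 to 1570 CPM, also higher in each pair, and Nes, Sox2 and Vim rose with the block. The 10 oligodendrocyte lineage markers summed to 1086, 651 and 563 CPM in control and 1060, 686 and 715 CPM in NMDA libraries, highest in replicate 1 of both groups. Of these markers, 1 (Mog, at 1.87 to 5.9 CPM) fell with the block in edgeR, but its adjusted p was 0.28 in DESeq2 with the block. What part these marker shifts have in the results on presynaptic genes was not tested.

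In its median change, the machinery as a whole was close to level between the groups. Without the block, 0 of the 38 members passed an adjusted p of 0.05 in edgeR's quasi-likelihood test, beside 0.430% of all tested genes. The DESeq2 Wald test also called 0 members, beside 2.20% of all genes with an adjusted p there. Likewise limma-voom called 0 members, beside only 60 of all 14642 tested genes. With shares this low over all genes, a count of 0 among 38 says little about the members. An unadjusted edgeR p under 0.05 was found for 7 members, 18.4% beside 13.7% of all tested genes. Fitted log2 changes ran from -0.39 to 0.39 with a median of 0.03, beside -0.01 for all tested genes. For 32 members the 95% interval lay within a 1.5-fold change either way. The exceptions were Syn1, Syn3, Sv2b, Syt2, Unc13a and Unc13b. Among all 14642 tested genes, 9054 had such an interval. The median log2 mean CPM was 7.62 for the members and 4.46 for all tested genes. What part abundance has in the intervals was not tested.

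Libraries with the same replicate number deviated together from their group means, and fitting that number as a block resolved smaller changes. In the edgeR quasi-likelihood fit with the block, Syn1, Sypl and Rab3a rose and Syn3, Synpr, Sv2b, Unc13a and Unc13b fell. The 3 rises are 7.89% of the members, where 5.65% of all tested genes were called higher. The 5 falls are 13.2% of the members, where 8.35% of all genes were called lower. In either direction 21.1% of members were called against 14.0% of all genes, a difference for which no test was made. The interval with the block lay within 1.5-fold for 37 members, the exception being Syn3, and for 10736 of all 14642 tested genes. The labels do not say what the numbers stand for, and the extraction protocol names 2 biological replicates although each group has 3 samples. The p-values therefore cover only the variation among these libraries, which may be technical in part.

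**Figure D1:**
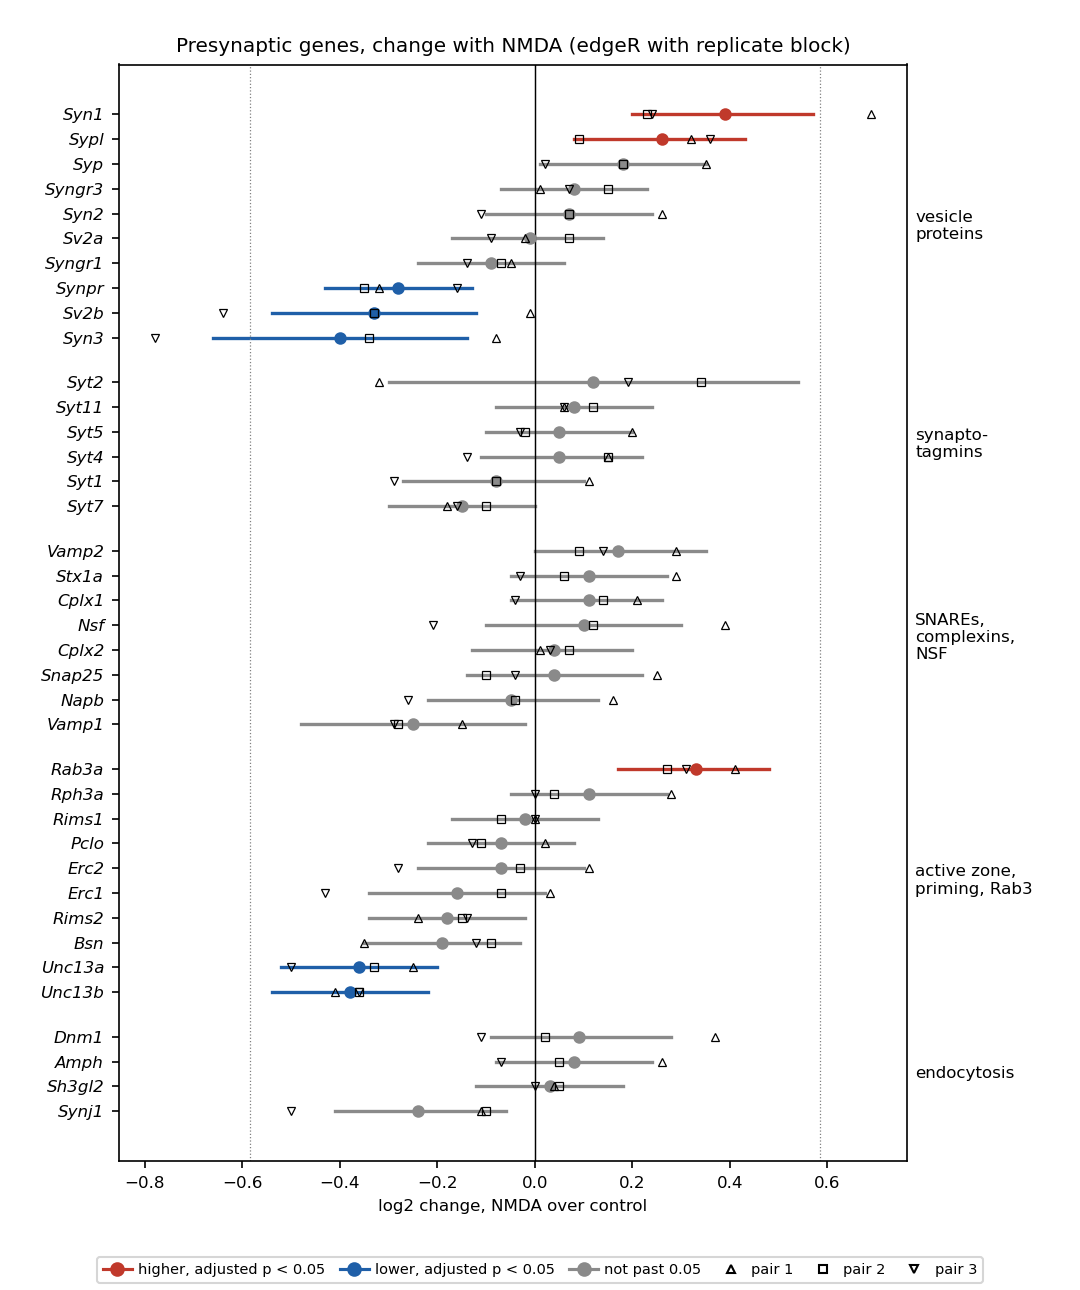
Log2 change, NMDA over control, for the 38 members by step. Filled circles and bars are the edgeR estimate with the replicate block and its 95% interval, open symbols are the ratios of CPM + 0.5 within each replicate number, and dotted lines mark a 1.5-fold change; Syn1, Sypl and Rab3a lie to the right and Unc13a, Unc13b, Syn3, Sv2b and Synpr to the left.

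Agreement between pairs was partial. Of the 38 members, 21 moved the same way in all 3 pairs, 10 up and 11 down, which is 55.3% beside 48.2% of all tested genes. The groups did not overlap, with NMDA higher, for Rab3a alone, 2.63% of the members beside 8.18% of all genes. With NMDA lower, they did not overlap for Synpr, Sv2b, Unc13a and Synj1, 10.5% of the members beside 11.1% of all genes. Control library 3 was the highest control for 26 of the 38 members. Summed over the members, CPM were 8823, 8386 and 10110 in control and 9735, 8418 and 9482 in NMDA libraries. The total was therefore higher with NMDA in pairs 1 and 2 and lower in pair 3.

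Levels were compared between genes per kb of annotated exon. Exon length here is the union of all annotated exons of a gene, which can exceed the length of any single transcript. Vamp2, which encodes synaptobrevin-2, the main vesicle SNARE of the forebrain, was the most abundant member at 214 CPM per kb in control libraries. Cplx2 followed at 121, Snap25 at 113 and Syt11 at 102. Syt1, the fast calcium sensor of cortical terminals, stood at 93.1 and Rab3a at 91.9 CPM per kb. These neighbours overlapped across the control libraries, and the order after Vamp2 is loose. At the other end were Unc13b at 2.15, Syn3 at 1.55, Vamp1 at 1.30 and Syt2 at 0.394 CPM per kb. Vamp1 and Syt2 are the isoforms known mainly from spinal cord, brainstem and fast-spiking interneurons.

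**Figure D2:**
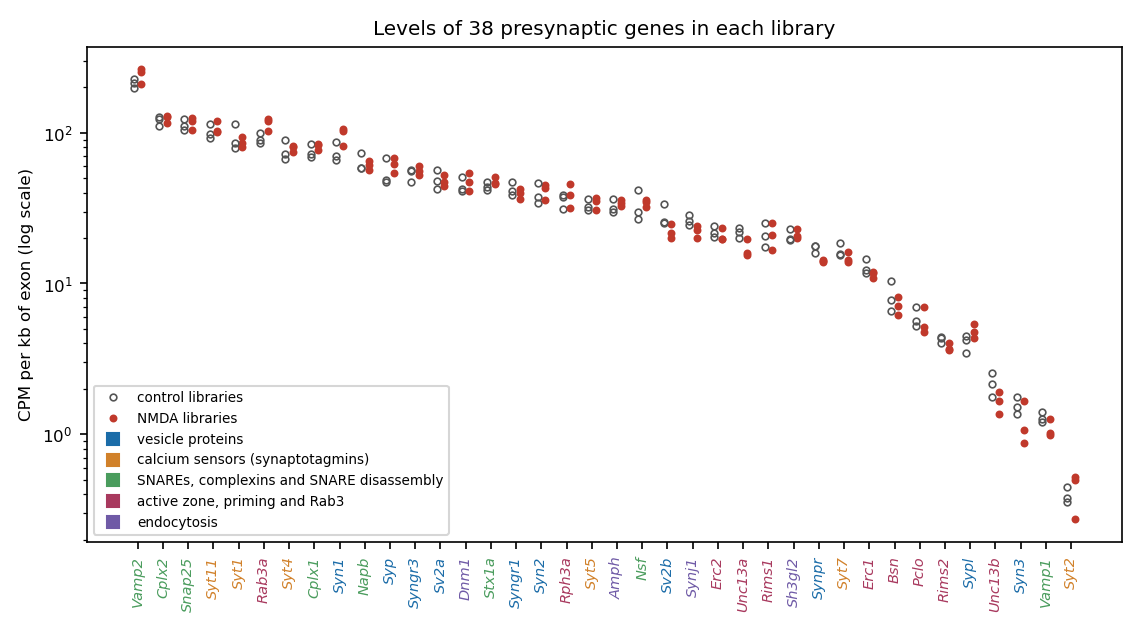
CPM per kb of exon (log scale) of the 38 members in each library, ordered by control mean and with names coloured by step. Open circles are the 3 control and filled circles the 3 NMDA libraries; levels span from Vamp2 at 214 to Syt2 at 0.394 CPM per kb in control, and the groups overlap for most members.

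Vesicle proteins split by gene rather than moving as a group: with the block 2 of the 10 rose and 3 fell, and their median log2 change was 0.03. Synapsin 1, encoded by Syn1, coats vesicles and ties them into the reserve pool. Syn1 stood at 216, 231 and 288 CPM in control libraries 1, 2 and 3 and at 349, 271 and 340 CPM in NMDA libraries 1, 2 and 3. NMDA was higher in each pair, although control 3 was above NMDA 2. The log2 change was 0.39 ± 0.09 (SE) with the block, an adjusted p of 0.0069 in edgeR's quasi-likelihood test, against 0.26 without it. It remained past 0.05 in the other 6 blocked fits, those without one pair included.

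Syn2, the other abundant synapsin gene, was at 263, 241 and 326 CPM in control and 315, 253 and 303 CPM in NMDA libraries, higher in pairs 1 and 2 and lower in pair 3. Syn3, a low-level synapsin prominent in immature neurons, went from 21.6, 16.8 and 18.7 CPM in control to 20.5, 13.2 and 10.7 CPM in NMDA libraries. Every pair was lower, least in pair 1, and NMDA 1 lay within the control range. With the block its log2 change was -0.40 ± 0.12 with an adjusted p of 0.036 (edgeR); without pair 3 it was -0.19 with an adjusted p of 0.4, and with the DESeq2 block fit the adjusted p was 0.18. Exons of Timp3 on the opposite strand cover 14.1% of the Syn3 exons, and Timp3 rose by log2 0.42 with the block (adjusted p 0.002, edgeR). The strand setting of the counting is not given in the sources used here, so the 2 genes' reads may be mixed.

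Ratios between relatives were taken within each library for 16 pairs of members; their ranges did not overlap between the groups for 4 (Syn1 to Syn2, Syn1 to Syn3, Vamp2 to Vamp1 and Syngr1 to Syngr3) and overlapped for 12. These ratios have no test, and no share over other gene pairs was computed. In each of the 4, the ratio moved towards the gene with the shorter annotated exons. Exon lengths are 3.3 kb for Syn1, 7.03 kb for Syn2 and 12.3 kb for Syn3. They are 3.81 kb for Vamp2 and 10.2 kb for Vamp1, and 2.07 kb for Syngr3 and 4.81 kb for Syngr1. What part exon length has in these ratios was not tested. The ratio of Syn1 to Syn2 counts was 0.819, 0.958 and 0.881 in control and 1.11, 1.07 and 1.12 in NMDA libraries. Those ranges did not overlap. Syn1 was thus below Syn2 in every control library and above it in every NMDA library, in counts not scaled for length. The ratio of Syn1 to Syn3 rose from a mean of 13 to 23.2, also without overlap.

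Synaptophysin and its relatives are abundant proteins of the vesicle membrane, and their genes moved in different directions. Sypl, a broadly expressed relative, was at 28.8, 37.4 and 35.0 CPM in control and 36.1, 39.8 and 45.1 CPM in NMDA libraries. NMDA was higher in each pair and the groups overlapped. It rose by log2 0.26 ± 0.08 with the block, at an adjusted p of 0.044 (edgeR), but was not past 0.05 with pair 1, 2 or 3 left out (0.058, 0.053 and 0.23) or in the DESeq2 block fit (0.18). With offsets for GC content and exon length it was larger, at 0.39 with an adjusted p of 0.0038 (edgeR), above Syn1 at 0.37 and Rab3a at 0.30 in that fit. Synpr, encoding synaptoporin of hippocampal mossy fibres and interneurons, was at 167, 168 and 151 CPM in control and 134, 132 and 135 CPM in NMDA libraries. All NMDA libraries were below all control libraries and lay within a narrow band. Blocked, its log2 change was -0.28 ± 0.07 with an adjusted p of 0.015 (edgeR); with offsets for GC content and exon length it was -0.14 with an adjusted p of 0.2, and without pair 2 the adjusted p was 0.24. Syp itself had a log2 change of 0.18 with an adjusted p of 0.14 in the blocked edgeR fit, and passed 0.05 only without pair 3.

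SV2 proteins are vesicle glycoproteins that act on priming and bind synaptotagmin. Sv2b was at 210, 213 and 284 CPM in control and 209, 169 and 182 CPM in NMDA libraries. The groups just failed to overlap, pair 1 was level, and pair 3 carried the largest difference. Sv2b fell by 0.33 ± 0.10 on the log2 scale with the block, at an adjusted p of 0.037 (edgeR), but the change was -0.16 with an adjusted p of 0.34 without pair 3. The adjusted p was 0.1 without pair 2 and 0.41 in DESeq2 with the block. Sv2a, the ubiquitous paralog and the binding site of levetiracetam, was at 222, 196 and 261 CPM in control and 218, 206 and 245 CPM in NMDA libraries, a log2 change of -0.01 with a 95% interval of -0.17 to 0.14 with the block. The ratio of Sv2a to Sv2b overlapped between the groups. Syngr1 and Syngr3, synaptogyrins of the vesicle membrane, had log2 changes of -0.09 and 0.08 with the block, neither past 0.05 in edgeR. Their ratio within a library went from 1.73, 1.89 and 1.91 in control to 1.65, 1.62 and 1.65 with NMDA, without overlap. No test was made of this ratio.

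**Figure D3:**
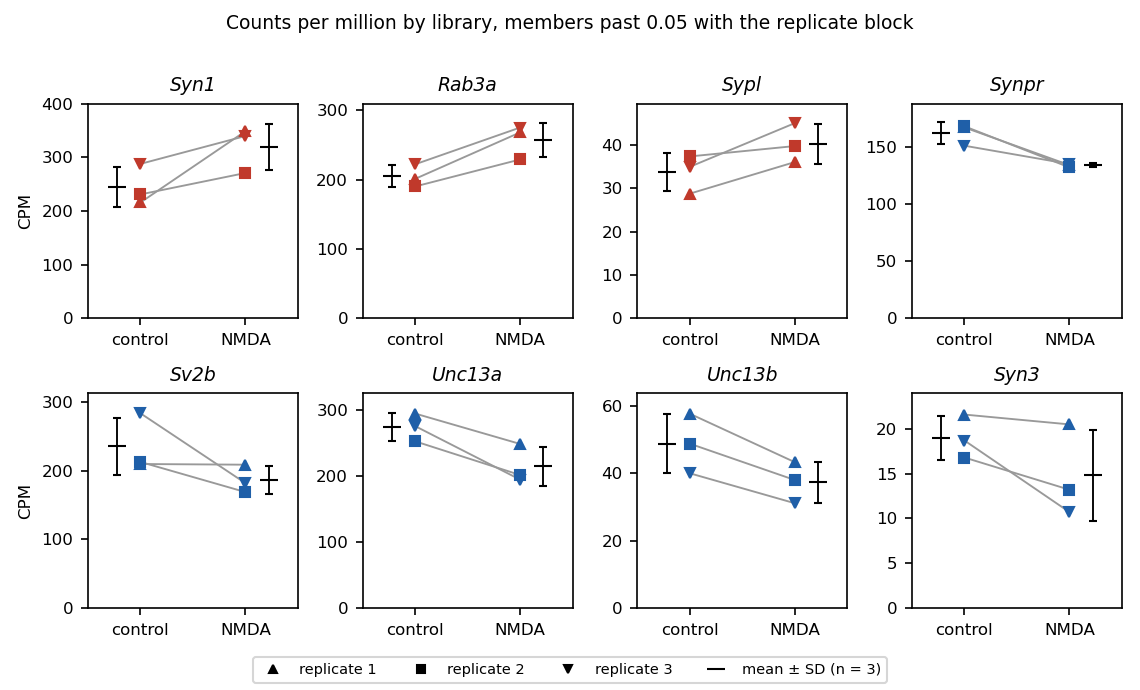
CPM per library of the 8 members past an adjusted p of 0.05 in edgeR with the replicate block. Lines join libraries of the same replicate number and the bars beside them are mean ± SD (n = 3 per group); every pair slopes up for Syn1, Rab3a and Sypl and down for Synpr, Unc13a, Unc13b, Syn3 and, barely in pair 1, Sv2b.

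No synaptotagmin passed the test in either edgeR fit, and the median log2 change of the 6 genes was 0.05 with the block. Syt11, a member that does not bind calcium and restrains membrane retrieval, was the most abundant per kb, at 513, 484 and 597 CPM in control and 535, 526 and 620 CPM in NMDA libraries. NMDA was slightly higher in each pair and the groups overlapped; the log2 change with the block was 0.08 with a 95% interval of -0.08 to 0.24. Syt7, the slow high-affinity sensor of asynchronous release and facilitation, was at 138, 115 and 117 CPM in control and 122, 107 and 104 CPM in NMDA libraries. Each pair was lower and the groups overlapped. The log2 change was -0.15 ± 0.07 with the block and an adjusted p of 0.17 (edgeR). Syt1 was at 662, 711 and 955 CPM in control and 717, 672 and 784 CPM in NMDA libraries, higher in pair 1 and lower in the others. Its blocked interval was -0.27 to 0.10. Syt4, which is known as an activity-induced gene in other preparations, was at 283, 262 and 350 CPM in control and 314, 291 and 318 CPM in NMDA libraries. Its blocked log2 change was 0.05 with an interval of -0.11 to 0.22. Syt5 was within 0.20 on the log2 scale in every pair, and Syt2, near 3.01 CPM, had the widest blocked interval of the step, from -0.30 to 0.54.

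None of the 8 genes for SNAREs, complexins and SNARE disassembly passed the test in either edgeR fit, and their blocked log2 changes ran from -0.25 to 0.17 with a median of 0.07. Vamp2 was at 817, 754 and 870 CPM in control and 1001, 801 and 957 CPM in NMDA libraries, higher in each pair with overlapping groups. Its blocked log2 change was 0.17 ± 0.08 with an adjusted p of 0.18 (edgeR). Vamp1, its low-level paralog, was at 14.4, 12.3 and 12.8 CPM in control and 12.9, 10.1 and 10.4 CPM in NMDA libraries. Each pair was lower, and the log2 change was -0.25 ± 0.11 with an adjusted p of 0.14 (edgeR with the block). Neither gene passed alone. The ratio of Vamp2 to Vamp1 was 56.7, 61.1 and 67.9 in control and 77.3, 79.5 and 92.1 in NMDA libraries. Those ranges did not overlap, but the ratio has no test and no share over other gene pairs to set it against.

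Snap25, the plasma membrane SNARE cut by botulinum toxin A, was at 712, 756 and 835 CPM in control and 850, 703 and 814 CPM in NMDA libraries. Only pair 1 was higher, and the blocked interval was -0.14 to 0.22. Stx1a, encoding syntaxin 1A, had a blocked log2 change of 0.11 with an interval of -0.05 to 0.27. The complexins Cplx1 and Cplx2 had blocked log2 changes of 0.11 and 0.04, and their ratio, at 0.253 to 0.303 in control and 0.290 to 0.293 in NMDA libraries, overlapped. Nsf, the ATPase that recycles SNAREs, varied more between pairs than any other gene of the step, at log2 0.39, 0.12 and -0.21. Napb, its beta-SNAP adaptor, had a blocked log2 change of -0.05.

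Of the 10 genes for the active zone, priming and Rab3, 1 rose and 2 fell with the block. The median log2 change was -0.12, the lowest of the 5 steps. The step also has the longest exons, with a median of 11.5 kb against 5.86 to 6.35 kb in the others. With offsets for GC content and exon length, its median log2 change was -0.03, still the lowest but nearer those of the other steps, at 0.01 to 0.09. Rab3a encodes the vesicle GTPase that binds RIM and brings vesicles to the release site. Rab3a was at 201, 190 and 222 CPM in control and 268, 229 and 275 CPM in NMDA libraries. Every NMDA library exceeded every control library, and the log2 ratios in the 3 pairs were 0.41, 0.27 and 0.31. The log2 change with the block was 0.33 ± 0.07 with an adjusted p of 0.0054 (edgeR), and 0.22 without the block. It stayed past 0.05 in 5 of the other 6 blocked fits, the exception being an adjusted p of 0.058 without pair 2.

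Munc13 proteins open syntaxin so that SNAREs can assemble, and Unc13a and Unc13b fell with the block. The third gene of the family, Unc13c, is not a member; it was at 9.53, 7 and 7.17 CPM in control and 7.18, 7.22 and 8.85 CPM in NMDA libraries, with a blocked log2 change of -0.02 and an interval of -0.32 to 0.29. Unc13a, encoding Munc13-1, the main priming factor of cortical glutamatergic terminals, was at 294, 252 and 275 CPM in control and 248, 201 and 194 CPM in NMDA libraries. All NMDA libraries lay below all control libraries. The log2 change with the block was -0.36 ± 0.08, or 22% lower, with an adjusted p of 0.0038 (edgeR). Unc13b, encoding Munc13-2, was at 57.7, 48.8 and 40.0 CPM in control and 43.3, 38 and 31.1 CPM in NMDA libraries. The groups overlapped, since replicate 1 was the highest and replicate 3 the lowest in both, and the pair differences were nearly equal at log2 -0.41, -0.36 and -0.36. The log2 change with the block was -0.38 ± 0.08, or 23.2% lower, with an adjusted p of 0.0021 (edgeR). Without the block the adjusted p was 0.23 for Unc13a and 0.32 for Unc13b. Both passed 0.05 in the other 6 blocked fits, at 0.049 for Unc13a without pair 2 and again without pair 3. The ratio of Unc13a to Unc13b had a mean of 5.71 in control and 5.75 in NMDA libraries, and its ranges overlapped.

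Exons of Colgalt1 on the opposite strand cover 3.92% of the Unc13a exons, and Colgalt1 was lower as well, by log2 -0.29 with the block (adjusted p 0.024, edgeR). At 26.7 to 44.1 CPM it had far fewer reads than Unc13a. Mpv17l2 covers 1.30% of the Rab3a exons and had a blocked log2 change of 0.24 that did not pass the test, at 9.71 to 13.6 CPM. Whether reads of these neighbours enter the members' counts was not tested.

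The scaffolds of the active zone did not pass the test. Rims1 and Rims2 encode RIM proteins, which bind Rab3, Munc13 and calcium channels. Rims1 was at 184, 128 and 153 CPM in control and 184, 122 and 154 CPM in NMDA libraries, level in each pair. The blocked log2 change was -0.02 with an interval of -0.17 to 0.13. Rims2 was lower in each pair, at log2 -0.24, -0.15 and -0.14, with an adjusted p of 0.13 in the blocked edgeR fit. Bsn and Pclo, the giant scaffolds bassoon and piccolo, had blocked log2 changes of -0.19 (adjusted p 0.096, edgeR) and -0.07. The ELKS genes Erc1 and Erc2 had -0.16 and -0.07, and Erc1 passed 0.05 in the blocked fit without pair 1. Rph3a, encoding the Rab3 effector rabphilin, had 0.11 with an adjusted p of 0.39 (edgeR with the block).

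No endocytosis gene passed the test in either edgeR fit. Dnm1, encoding the neuronal dynamin that pinches vesicles off, was the most abundant of the 4 per kb, at 221, 214 and 267 CPM in control and 286, 217 and 248 CPM in NMDA libraries. Pair 1 was higher, pair 2 level and pair 3 lower, with a blocked interval of -0.09 to 0.28. Synj1, the lipid phosphatase that helps shed clathrin coats, was at 210, 197 and 230 CPM in control and 194, 184 and 162 CPM in NMDA libraries. Every NMDA library was below every control library, with the largest gap in pair 3. The log2 change with the block was -0.24 ± 0.08 with an adjusted p of 0.067 (edgeR), which passed 0.05 in the fit without pair 1. Amph and Sh3gl2, encoding amphiphysin and endophilin A1, had blocked log2 changes of 0.08 and 0.03, with intervals of -0.08 to 0.24 and -0.12 to 0.18.

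Across the 38 members, the change with NMDA followed the length of the annotated exons. Spearman's rho between exon length and log2 change was -0.73 without the block and -0.71 with it, and -0.58, -0.71 and -0.66 in the single pairs. Over the 14489 tested genes with a length it was -0.18 in both fits, and -0.06, -0.10 and -0.29 in the pairs. The genes share libraries and are not independent, so these values are descriptions. Of the 13 members with at most 5 kb of exon, 11 had a blocked log2 change above 0. Of the 17 members between 5 and 10 kb, 9 were above 0. All 8 members over 10 kb (Syn3, Vamp1, Unc13a, Unc13b, Rims2, Bsn, Pclo and Erc1) were below 0, with a median of -0.22. Among all 1441 tested genes over 10 kb, 67.5% were below 0 and the median was -0.08.

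Offsets for GC content and exon length, fitted per library over all genes, brought rho to -0.02 over all genes and to -0.55 over the members. With these offsets and the block, 7 of the 8 members over 10 kb were still below 0, Pclo being the other, beside 46.3% of all genes of that length. Syn1, Sypl and Rab3a were called higher in that fit, again 7.89% of members, beside 7.83% of all genes. Unc13a and Unc13b were called lower, at log2 -0.29 and -0.23, which is 5.26% of members beside 6.60% of all genes. Syn3, Synpr and Sv2b were not called in it. Their adjusted p-values in it were 0.075, 0.2 and 0.057 in edgeR. In either direction 5 members were called with the offsets, 13.2% against 21.1% without them, beside 2113 of all 14642 genes. Among the 89 other presynaptic genes described below, the share was 20.2% with and without the offsets. What part GC content and exon length have in the members' calls was not tested. DESeq2 with the block called 5 members (Syn1, Rab3a, Synpr, Unc13a and Unc13b), 13.2% beside 6.96% of all genes with an adjusted p.

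**Figure D4:**
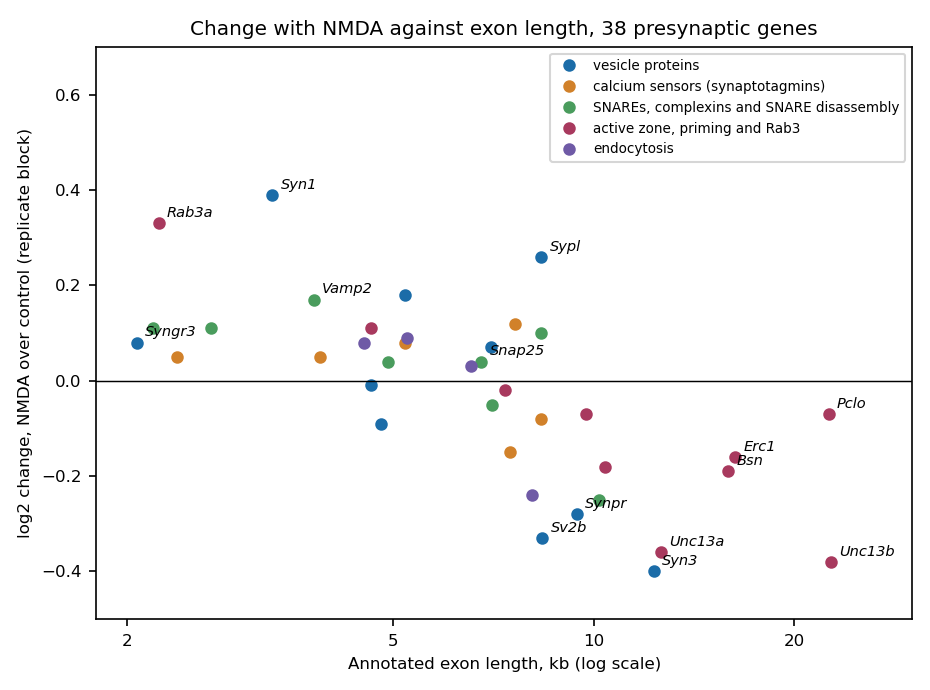
Blocked log2 change, NMDA over control, of the 38 members against annotated exon length in kb (log scale), coloured by step. Rab3a and Syn1, at the short end, are highest, and all 8 members over 10 kb lie below 0.

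The rest of the machinery was read from 96 further genes listed by textbook roles, of which 89 passed the count filter. They are called presynaptic here, but counts are of the whole dish, so their RNA may come from any cell type. Without the block 0 of the 89 were called by edgeR, beside 0.430% of all tested genes, and 0 by limma-voom, beside 60 of all 14642. The DESeq2 Wald test called 6, which is 6.90% of the 87 with an adjusted p there, beside 2.20% of all genes. An unadjusted edgeR p under 0.05 was found for 19, 21.3% beside 13.7%. With the block 5 rose and 13 fell, 5.62% and 14.6% of the list beside the shares of 5.65% and 8.35% given above for all genes, and the median log2 change was -0.04. Offsets for GC content and exon length turned this into 9 higher and 9 lower, 10.1% each beside 7.83% and 6.60% of all genes.

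The 5 that rose came from 4 of the steps. Rab3b, a second Rab3 isoform, was at 44.7, 42.4 and 49.7 CPM in control and 62.4, 49.4 and 62.1 CPM in NMDA libraries, a log2 change of 0.34 (adjusted p 0.0052, edgeR with the block). The other isoforms did not pass: Rab3c, at 239 to 337 CPM, had a blocked log2 change of -0.15 and Rab3d, at 19.4 to 26.5 CPM, of -0.10, both lower in each pair. Sncb, encoding beta-synuclein, rose by 0.39, Vat1, a vesicle amine transport homologue, by 0.41, Stx4a, a plasma membrane syntaxin, by 0.35 and Ap2s1, the small subunit of the clathrin adaptor AP2, by 0.25, all past an adjusted p of 0.05 in the blocked edgeR fit. In DESeq2 with the block, Stx4a (0.13) and Ap2s1 (0.056) were not past it. Unblocked adjusted p-values of the 5 in edgeR were 0.24 for Rab3b, 0.16 for Sncb, 0.34 for Vat1, 0.22 for Stx4a and 0.22 for Ap2s1.

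The falls with the smallest p were larger than those of the members. Stxbp2, encoding Munc18-2, was at 64.2, 41.3 and 38 CPM in control and 37.0, 22.6 and 17.4 CPM in NMDA libraries, without overlap, a log2 change of -0.92 (adjusted p 3.9e-07, edgeR with the block). Tspoap1, which encodes RIM-binding protein 1 and links RIM to calcium channels, was at 178, 120 and 103 CPM in control and 90.5, 76.2 and 59.6 CPM in NMDA libraries, also without overlap, a log2 change of -0.81. Rimbp2, its paralog, fell by 0.47 on the log2 scale with the block, Itsn2, an endocytic scaffold, by 0.50 and Stx2 by 0.45. Their unblocked adjusted p-values in edgeR were 0.27 for Stxbp2, 0.19 for Tspoap1, 0.16 for Itsn2, 0.14 for Rimbp2 and 0.16 for Stx2. In DESeq2 with the block, Stx2 alone of these was not past 0.05, at an adjusted p of 0.055.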

How the data were processed

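The authors deposited raw read counts per gene for 6 libraries. Per the submitters' processing notes, Trimmomatic, TopHat and HTSeq were used with mm10 and GRCm38.p6; per the labels' protocols the kit was stranded, single-end and poly(A)-selected. Neither their versions nor how HTSeq treated strand is given in the sources used here. The deposited counts were tested with edgeR 4.0.16 in R 4.3.3: filter with minimum count 10 and minimum total 15, TMM scaling, robust quasi-likelihood F tests on group, and Benjamini-Hochberg adjustment over 14642 genes at 0.05. Intervals are 95%. Totals were 15417234 to 19183999 counts, and blank symbols were kept as their identifiers (2153 genes).

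Libraries of one replicate number deviated together from their groups' means (correlations 0.54, 0.38 and 0.49, all above 0.1). The number was therefore treated as a pair, which rests on the data and not on the labels. The blocked fit has 2 residual degrees of freedom against 4, and a biological coefficient of variation of 7.06% against 13.04%. Libraries of a group differed far beyond counting noise, so none was a copy of another.

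CPM were computed from the counts with TMM factors; pair ratios add 0.5 CPM. Exon lengths and GC content came from GENCODE M21 on GRCm38 (14489 tested genes), promoters from RefSeq, GRCm38.p6. Exon length is the union of a gene's annotated exons over all its transcripts, and GC content is that of its longest transcript. Other settings were DESeq2 1.42.0, limma-voom (limma 3.58.1), other scalings and filters, GC and length offsets (mgcv 1.9.3), and leaving out each library or pair; the blocked fit with DESeq2 size factors was added after the data were seen. The scripts were tested on simulated counts. The members and gene lists were chosen with earlier results of these data known. Members given in full are those called with or without the block and, per step, the one with the smallest unblocked p and the one with the highest CPM per kb; of the other presynaptic genes, up to 5 called with the block in each direction, by smallest p. Some further members are given in full or in part, chosen after their values were seen.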

Additional observations from a re-analysis of the deposited data

How the results depend on the processing

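Calls among the members depended on the replicate block. Counts are given as higher and lower at an adjusted p of 0.05. For the members, edgeR called 0 and 0 without the block and 3 and 5 with the replicate block, which pairs libraries by number. In the paired fits the members' counts were 3 and 5 with DESeq2 size factors, 3 and 2 with GC and length offsets, 2 and 3 with DESeq2, and 2 and 7, 1 and 3, and 3 and 3 without pair 1, 2 or 3. The other presynaptic genes, 0 and 0 without the block, went to 5 and 13 with it, 5 and 12 with DESeq2 size factors, 9 and 9 with offsets, 3 and 5 with DESeq2, and 6 and 15, 3 and 7, and 5 and 8 without pair 1, 2 or 3; unpaired, DESeq2 called 1 and 5 and edgeR without a count filter 1 and 3. All tested genes, 55 and 8 without the block, went to 828 and 1223 with it, 926 and 1151 with DESeq2 size factors, 1147 and 966 with offsets, 444 and 475 with DESeq2, and 1341 and 1366, 335 and 683, and 705 and 758 without pair 1, 2 or 3; unpaired, DESeq2 called 150 and 150, no filter 130 and 130, and 5 were lower with DESeq2 size factors and 5 with offsets. Leaving out 1 library unpaired gave 19 to 89 higher and 0 to 57 lower over all genes and 0 members each time. The most, 89 and 57, came without NMDA library 1, and 19 without control library 2. The median member log2 change moved by less than the spread between pairs in every setting run. The cause of these differences was not tested.

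In the settings run, signs turned only for uncalled members, with unblocked log2 changes of at most 0.14 in size. With offsets, Napb went to 0.01, Rims1 to 0.03 and Pclo to 0.07, with or without the block, and Sv2a to 0.00 in DESeq2 with the block. In the blocked fit without pair 1 the values were Amph -0.00, Syn2 -0.01, Syt5 -0.01, Dnm1 -0.03, Nsf -0.04, Snap25 -0.06 and Sv2a 0.00. Without pair 2 they were Syt2 -0.03 and Rims1 0.00, and without pair 3 Syt1 0.03, Sv2a 0.04, Erc2 0.05 and Napb 0.07. Leaving out 1 library, unpaired, the lowest and highest log2 changes were -0.02 and 0.20 for Syn2, -0.00 and 0.13 for Syngr3, -0.11 and 0.10 for Sv2a, -0.20 and 0.08 for Syt1, -0.01 and 0.38 for Syt2, -0.04 and 0.18 for Syt4, -0.01 and 0.12 for Snap25, -0.02 and 0.08 for Cplx2, -0.11 and 0.06 for Napb, -0.06 and 0.28 for Nsf, -0.16 and 0.12 for Rims1, -0.24 and 0.06 for Pclo, -0.01 and 0.24 for Rph3a, and -0.02 and 0.11 for Sh3gl2. Whether depth or the number of libraries limits the calls was not tested; the lowest member, Syt2, was at 2.08 to 4 CPM.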

Other observations

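Rab3a, which rose with the block, and Unc13a, which fell, lie 866 kb apart on chromosome 8, an interval chosen after their values were seen. Of the 45 genes annotated between them, 27 were tested. With the replicate block edgeR called 1 of these higher (Ccdc124) and 4 lower (Myo9b, Gtpbp3, Mast3 and Ano8), 18.5% of those tested, with a median log2 change of 0.07. Over all tested genes 14.0% were called with the block, 5.65% higher and 8.35% lower, so the share in this stretch is near that of all genes.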
